A study of Mus musculus with 2 samples.

Results

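Saa3 encodes serum amyloid A3, an acute-phase protein. The gene was followed in 2 single-cell libraries of mouse brain microglia as 1 of the 19537 genes of the deposited matrices. It was chosen by its own level, since it was known to be abundant in the wildtype library and nearly missing from the PARK7/DJ-1 KO library. That difference is therefore a description here and was not tested. One library came from PARK7/DJ-1 KO mice, which carry the gene-trap allele B6;129P2-Park7 Gt(XE726)Byg/Mmucd on a C57BL/6NCrl background, and the other from their wildtype littermates. All mice of both libraries, aged 3 to 4 months, had received a single intraperitoneal injection of lipopolysaccharide (LPS), a component of bacterial membranes, at 4 μg per g body weight, and 24 h later living single CD11b+CD45int cells were sorted from the brain and encapsulated by Drop-seq. Each library pooled 2 mice, 1 female and 1 male, and no untreated library was used here.

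Drop-seq reads the 3′ ends of transcripts, and a unique molecular identifier (UMI) marks each captured molecule. Cells were barcodes with at least 500 UMIs and at least 100 genes, which gave 320 cells and 381305 UMIs in the PARK7/DJ-1 KO library and 1427 cells and 1989011 UMIs in the wildtype library, with a median of 963.5 and 1065 UMIs per cell. Levels are UMIs of a gene per 1e6 UMIs of the cells summed (CPM). With 1 library per genotype there are no replicates, no test between genotypes was made, genotype cannot be told apart from library, and the intervals in brackets (95%) cover counting error only. Fewer cells making a transcript and less transcript per cell cannot be told apart in such a sum, so the values per cell follow it.

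Serum amyloid A proteins are small lipid-binding proteins that rise in inflammation. In the mouse, Saa1 and Saa2 are made mainly by the liver and circulate on high-density lipoprotein, whereas Saa3 is made chiefly outside the liver, by macrophages, adipocytes and epithelia. Cytokines such as interleukin-1, interleukin-6 and tumour necrosis factor and the LPS receptor Toll-like receptor 4 switch these genes on through the transcription factors NF-κB, C/EBP and STAT3. Microglia, the resident macrophages of the brain, are kept apart from the blood by the blood-brain barrier.

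In the RefSeq annotation of GRCm38.p6, Saa3 lies on chr7:46711998-46719615 on the minus strand, next to Saa4, Saa1 and Saa2. The promoter windows of Saa3, of its relatives Saa1 and Saa2 and of Lcn2, whose level was higher in cells with many Saa3 UMIs as described further on, are given 5′ to 3′ as in the RefSeq table. Each holds 250 bases before and 50 bases after the start site. The Saa3 window is chr7:46715627-46715926 (minus strand), around an internal start site of the annotated gene. The Saa1 window is chr7:46742931-46743230 (minus strand), the Saa2 window is chr7:46751583-46751882 (plus strand) and the Lcn2 window is chr2:32387690-32387989 (minus strand). Capitals mark matches on either strand to a C/EBP-type motif (TTNCNNAA) or an NF-κB-type motif (GGGNNNNNCC).
Saa3: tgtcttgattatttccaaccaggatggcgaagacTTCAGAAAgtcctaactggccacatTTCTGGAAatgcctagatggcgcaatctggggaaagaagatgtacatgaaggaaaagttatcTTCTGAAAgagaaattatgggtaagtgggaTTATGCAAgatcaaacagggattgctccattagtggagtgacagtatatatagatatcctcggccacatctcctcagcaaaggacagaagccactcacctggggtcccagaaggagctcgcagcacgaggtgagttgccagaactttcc
Saa1: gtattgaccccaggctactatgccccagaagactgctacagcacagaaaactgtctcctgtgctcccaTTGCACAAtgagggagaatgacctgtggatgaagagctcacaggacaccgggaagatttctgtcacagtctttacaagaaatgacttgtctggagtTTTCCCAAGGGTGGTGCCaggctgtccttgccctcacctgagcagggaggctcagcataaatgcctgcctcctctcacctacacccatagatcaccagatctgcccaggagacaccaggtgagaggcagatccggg
Saa2: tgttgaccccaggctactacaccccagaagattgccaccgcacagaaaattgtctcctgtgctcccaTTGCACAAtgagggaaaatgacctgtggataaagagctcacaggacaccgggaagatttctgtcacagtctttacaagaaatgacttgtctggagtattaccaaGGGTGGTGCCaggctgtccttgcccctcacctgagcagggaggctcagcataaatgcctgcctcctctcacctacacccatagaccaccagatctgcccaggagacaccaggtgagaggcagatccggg
Lcn2: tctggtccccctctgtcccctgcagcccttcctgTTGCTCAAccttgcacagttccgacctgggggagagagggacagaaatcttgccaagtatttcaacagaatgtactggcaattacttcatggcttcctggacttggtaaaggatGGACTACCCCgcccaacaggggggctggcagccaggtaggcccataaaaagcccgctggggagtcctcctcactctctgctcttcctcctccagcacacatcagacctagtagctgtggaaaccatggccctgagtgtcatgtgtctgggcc

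The Saa3 window held 4 matches to the C/EBP-type motif, against 2 in Saa1, 1 in Saa2 and 1 in Lcn2. Of 2 further windows searched and not shown, that of Marco held 3 and that of Saa4 held 2. At least 1 such match was present in 40.68% of the 32851 windows of this length in the RefSeq table, and 4 or more in 0.8523%. No NF-κB-type match was found in the Saa3 window, and 1 was found in each of the other three, with 3 in Marco and 1 in Saa4. This short motif was present in 50.79% of all windows. Motifs for STAT (TTCNNNGAA, 8.298% of all windows), AP-1 (TGANTCA, 7.808%) and a TATA box (TATAAA, 13.62%) were searched as well and had no match in these 4 windows. No marked matches overlap, though the 2 kinds adjoin in Saa1. Such matches are letters only, and binding was not measured. The Saa1 and Saa2 windows were the same at 287 of 299 aligned bases (95.99%), while the Saa3 window shared 59.78% of 276 aligned bases with that of Saa1.

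The genotype was read first from Park7 itself. The wildtype cells held 323 Park7 UMIs, 162.4 CPM (145.2 to 181.1), and the PARK7/DJ-1 KO cells held 1, 2.623 CPM (0.0664 to 14.61). No barcode was a cell in both libraries, and 11 barcodes were present in both at any depth. The 2 libraries also differed over microglial states. Of 15 genes of homeostatic microglia, 10 were at least 2-fold higher in PARK7/DJ-1 KO cells, where 13.5% of the 9084 genes with at least 20 UMIs were, and 21 of 23 inflammatory genes were at least 2-fold lower, where 15.3% of those genes were. P2ry12, a purinergic receptor of resting microglia, stood at 3837 CPM in PARK7/DJ-1 KO and 405.7 CPM in wildtype cells. The choroid plexus markers also stood apart, with 814 UMIs in PARK7/DJ-1 KO cells, 710 of them from Ttr (transthyretin), against 29 UMIs in wildtype cells. The part of these differences in the Saa3 values was not tested.

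Saa3 was one of the most abundant transcripts of wildtype LPS microglia and was not seen in any PARK7/DJ-1 KO cell. The 1427 wildtype cells held 8367 Saa3 UMIs, or 4207 CPM (4117 to 4298). That made Saa3 the gene with the 14th highest count and 0.4207% of all UMIs in cells. The 320 PARK7/DJ-1 KO cells held 0 Saa3 UMIs, for which the exact upper limit is 9.674 CPM. At the wildtype level 1604 UMIs would have been counted there. The exact lower limit of the ratio of wildtype to PARK7/DJ-1 KO was 434.7. Set against a floor of 3 UMIs in the PARK7/DJ-1 KO cells in place of that limit, the level was at least 534.7-fold higher in wildtype.

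Saa3 was listed in both matrices, because 6 Saa3 UMIs were present in the PARK7/DJ-1 KO library outside cells. They lay in 5 barcodes with 50, 47, 41, 14 and 11 UMIs in total, none of which occurred in the wildtype library. Over all barcodes the level was 8.762 CPM (3.216 to 19.07) in PARK7/DJ-1 KO and 3243 CPM (3180 to 3307) in wildtype, a ratio of 370.1 (170 to 1009). Among 2046 genes with at least 200 UMIs in wildtype cells, 6 had none in PARK7/DJ-1 KO cells. These were Saa3, Lcn2, Ccl5, Il1r2, Cd72 and Gm26917, named after their values were seen.

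**Figure D1:**
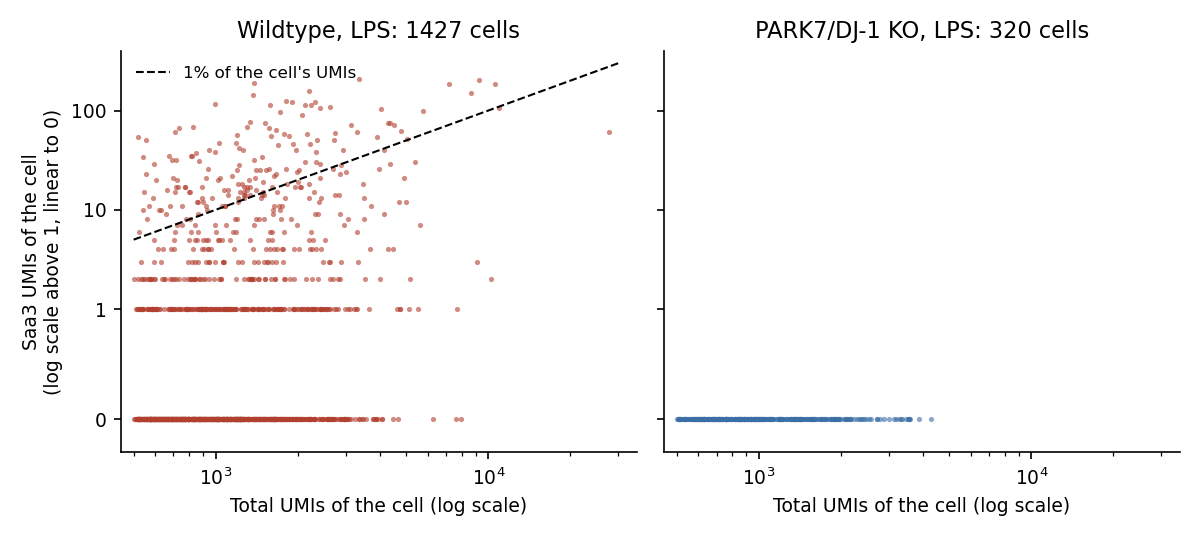
Each point is 1 cell, with its total UMIs on the x axis (log scale) and its Saa3 UMIs on the y axis (log scale above 1, linear to 0), for the wildtype LPS library on the left and the PARK7/DJ-1 KO LPS library on the right. Wildtype cells spread from 0 to 208 Saa3 UMIs, with a highest count of 66 in cells of 500 up to 750 UMIs and 208 in those of 2000 up to 5000, and with 147 of 1427 cells at or above the dashed line of 1%, and all 320 PARK7/DJ-1 KO cells lie at 0.

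Barcodes of 1 to 100 UMIs hold too little RNA to be cells and were read as droplets with free RNA from broken cells. In the wildtype library 4267 such barcodes held 416 Saa3 UMIs, 1318 CPM (1194 to 1450), and 9% of them had a Saa3 UMI. In the PARK7/DJ-1 KO library 9069 such barcodes held 6 Saa3 UMIs, 30.19 CPM (11.08 to 65.72). The free RNA of the 2 libraries thus differed by a factor of 43.64 (19.88 to 119.6). These barcodes were deeper in wildtype (median 75 UMIs) than in PARK7/DJ-1 KO (median 18 UMIs), and among barcodes of 1 to 50 UMIs the factor was 70.44 (29.54 to 203.9).

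Wildtype cells held 3.193 times (2.893 to 3.532) the Saa3 level of their own free RNA. The shallowest of these barcodes, 333 of 1 to 50 UMIs, held Saa3 at 2647 CPM (1873 to 3634) on 38 UMIs, and against them alone the ratio was 1.589 (1.157 to 2.247). Of 6454 genes with at least 50 UMIs, 6.337% had a higher ratio of cells to free RNA, and the median ratio was 1.201. For comparison, the ratio was 2.422 (1.856 to 3.217) for Lcn2, 1.965 (1.542 to 2.54) for Marco and 3.415 (3.091 to 3.782) for Fth1. In the PARK7/DJ-1 KO library the order was the opposite, with Saa3 in free RNA and not in cells, and the ratio had an upper limit of 0.4426. This was uncommon, since 13 of 5360 genes with at least 6 UMIs in free RNA had none in cells there.

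Across depth, Saa3 in wildtype barcodes was 2647 CPM at 1 to 50 UMIs, 1254 CPM (1131 to 1387) at 51 to 100 UMIs, 1296 CPM above that up to 200 UMIs and 1824 CPM above 200 up to the limit for cells. It was 3427 CPM (3191 to 3676) from 500 up to 750 UMIs, where cells begin, 3982 CPM from 1000 up to 2000 UMIs and 6806 CPM (6408 to 7221) in the 19 cells of at least 5000 UMIs. Above 50 UMIs the level therefore stepped up near the depth chosen for cells and was highest in the deepest barcodes, while the shallowest barcodes lay between. Over wildtype cells, Spearman's rho between Saa3 CPM and total UMIs was 0.16 (n = 1427 cells of 1 library). In the PARK7/DJ-1 KO library no barcode above 50 UMIs held a Saa3 UMI.

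**Figure D2:**
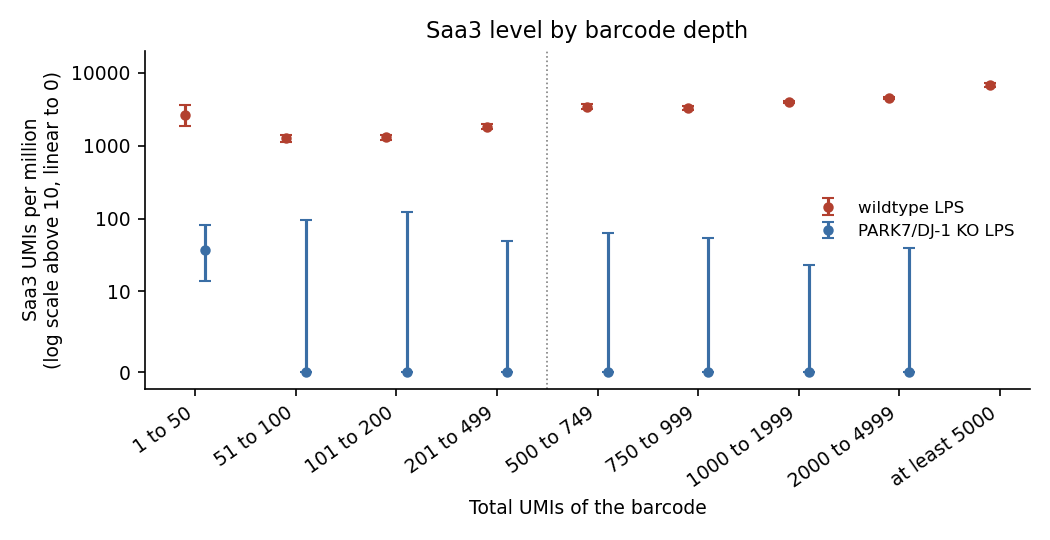
Saa3 level in CPM (y axis, log scale above 10 and linear to 0) in barcodes grouped by total UMIs (x axis), for wildtype LPS in red and PARK7/DJ-1 KO LPS in blue. Bars are exact Poisson 95% intervals, the dotted line marks the limit of 500 UMIs for cells, and wildtype barcodes lie above PARK7/DJ-1 KO barcodes at every depth where both were present.

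Within the wildtype library Saa3 was distributed very unevenly over cells. No Saa3 UMI was found in 844 of 1427 cells, 218 cells had 1 UMI, 68 had 2, 115 had 3 to 9 and 182 had 10 or more. The highest count was 208 UMIs, in a cell of 3356 UMIs. The highest share was 13.71%, in a cell with 189 Saa3 UMIs of 1379. The 143 cells with the most Saa3 UMIs (the top 10%) held 83.26% of all Saa3 UMIs, and the 14 cells at the very top held 25.52%. In 147 cells (10.3%) Saa3 made up at least 1% of the transcripts, and these cells held 79.48% of its UMIs.

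The deepest wildtype cell had 61 Saa3 UMIs of 27757 (0.2198%), and 93 of 236 cells with at least 2000 UMIs had none. If every cell had carried Saa3 only at the level of the free RNA, 353.3 cells with no Saa3 UMI would have been expected, less than the 844 counted. Cells of the wildtype library thus lay both below and far above that level.

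To compare cells at equal depth, each was drawn down to 500 UMIs. Averaged over such draws, 30.05% of wildtype cells had at least 1 Saa3 UMI, while a model of free RNA alone would give 48.27%. The model takes all 500 UMIs of a cell as free RNA, though cells hold RNA of their own. It therefore cannot tell whether a single UMI is background or expression, and a single UMI was not read as expression. At least 3 UMIs of 500 were found in 14.55% (12.78 to 16.51), against 2.922% from the model. At least 10 UMIs were found in 5.619% (4.47 to 6.929), against 2.156e-07%. At the level of the barcodes of 1 to 50 UMIs, the model would give 14.82% and 0.0001284%. At that level the share with at least 3 UMIs is no larger than in the model, and the share with at least 10 is. Without thinning, 40.85% of wildtype cells (38.29 to 43.46) had a Saa3 UMI. In the PARK7/DJ-1 KO library 0 of 320 cells had one, which allows a share of up to 0.9375% by the floor of 3 counts and 1.146% by the exact interval. Both limit cells with a Saa3 UMI, not cells that express the gene. Of 928 genes with a mean of at least 0.1 UMI at this depth, Saa3 had the highest ratio of variance to mean, 18.83. The next were the mitochondrial ribosomal RNA mt-Rnr2 (11.25), Marco (7.22), Malat1 (6.107) and the chemokine Ccl12 (5.35), and the median gene had 1.11.

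**Figure D3:**
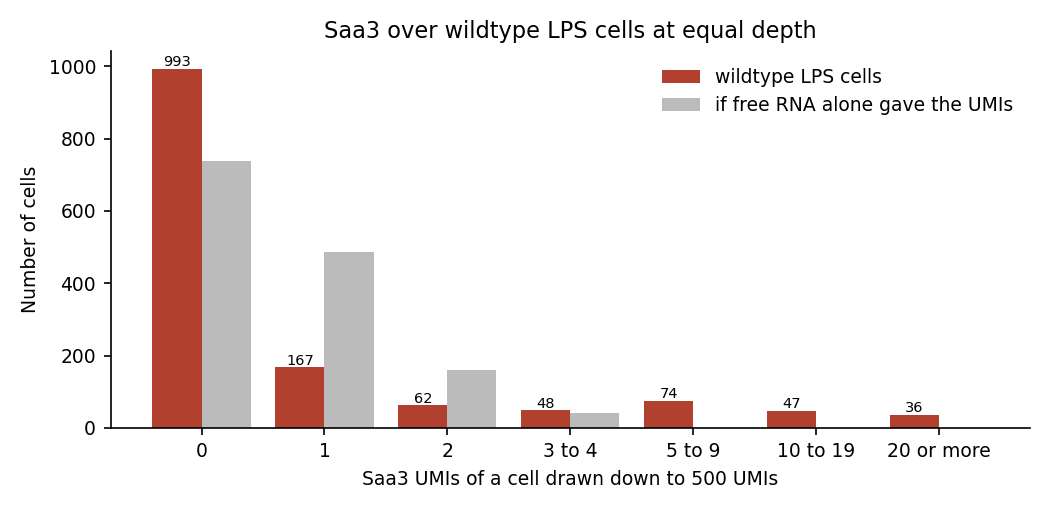
Number of wildtype LPS cells (y axis) by the Saa3 UMIs left after drawing each cell down to 500 UMIs (x axis), in red, beside the numbers that free RNA alone would give, in grey. More cells than from free RNA lie at 0 (993 against 738.1) and at 5 or more, and fewer lie at 1 or 2.

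For the description of other genes, wildtype cells were put into 4 classes by the count left in 1 draw down to 500 UMIs. There were 993 cells with 0 Saa3 UMIs of 500, 229 with 1 to 2, 122 with 3 to 9 and 83 with at least 10. These are ranges of one measured count and not cell types: 27 cells had 8 to 9 UMIs and 18 had 10 to 11. The class of at least 10 held 62.73% of all Saa3 UMIs, at 35020 CPM, and the class of 0 held 3.466%, at 218.7 CPM. Median depth was 1034, 1004, 1280 and 1261 UMIs from the lowest to the highest class. Levels of other genes in each class are given per 1e6 UMIs that are not Saa3, so that Saa3 itself does not dilute them.

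The other serum amyloid A genes were rare but were found with Saa3. Wildtype cells held 20 Saa1 UMIs in 19 cells, 10.06 CPM (6.142 to 15.53), and 12 Saa2 UMIs in 11 cells, 6.033 CPM (3.117 to 10.54). Together they amounted to 0.3825% of the Saa3 UMIs. Each of these 30 cells also had Saa3, at 7 to 187 UMIs with a median of 54, and no cell had both Saa1 and Saa2. Of all 1427 cells, 210 (14.72%) had 7 or more Saa3 UMIs, a limit taken from those 30 cells. PARK7/DJ-1 KO cells had 0 UMIs of either gene, but a difference from the low wildtype levels was not detectable at this depth, as the ratio of KO to wildtype could reach 1.057 for Saa1 and 1.877 for Saa2. Saa4 was not in the matrix.

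Reads of related transcripts can be assigned to the wrong gene, so the transcripts were compared (GENCODE vM39). Saa3 and Saa1 shared a longest identical run of 58 bases, and 9 of 958 windows of 50 bases in the Saa3 transcript were also in Saa1. In the last 300 bases, the part that 3′ capture reads most, the longest shared run was 17 bases and 54.26% of aligned bases were the same. Saa1 and Saa2 themselves were 94.18% the same over the last 300 bases, so counts of Saa1 and Saa2 cannot be told apart with certainty. Whether reads were exchanged with Saa3 was not tested.

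The genes around the cluster did not share the wildtype level of Saa3. Saal1, the nearest neighbour, had 21 UMIs in wildtype and 5 in PARK7/DJ-1 KO cells, a ratio of KO to wildtype of 1.242 (0.3659 to 3.384). The ratio was 1.623 (0.8227 to 3.011) for Hps5 and 1.043 (0.6361 to 1.643) for Gtf2h1, a subunit of the general transcription factor TFIIH. It was 0.4347 (0.2768 to 0.6543) for Ldha, lactate dehydrogenase A. Tph1 and Ldhc had no UMI in cells of either library.

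Genes that varied with Saa3 over the 1427 wildtype cells at 500 UMIs were described by Spearman's rho among 1922 genes found in at least 5% of cells. All cells share 1 library, the counts are sparse, and rho was low throughout. It was at least 0.1 for 9 genes (0.468% of those examined) and at most -0.1 for 2 genes (0.104%). The highest 10 values belonged to Marco (0.16), Fth1 (0.16), Lcn2 (0.16), AW112010 (0.14), Cp (0.12), Lyz2 (0.12), Ccl5 (0.11), Ctsl (0.11), Igsf6 (0.10) and Srgn (0.09). The levels by class show the sizes better, and there 3.76% of 6089 genes with at least 50 UMIs were at least 2-fold higher in the class of at least 10 Saa3 UMIs than in the class of 0, and 6.83% were at least 2-fold lower.

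Marco, a scavenger receptor of macrophages that binds bacteria, had the widest range of the 10 genes with the highest rho. Its level was 186.3, 275.9, 665.5 and 2862 CPM from the lowest to the highest Saa3 class, a ratio of 15.36 (13.09 to 18.06) between the ends. The highest class included 19 of 83 cells with a Marco UMI at 500 (22.89%), against 4.532% in the class of 0. Marco was itself concentrated, since 3 cells held 44.44% of its UMIs in the highest class, and without them the ratio was 9.469 (7.878 to 11.38). Here and below, such cells are left out of the highest class alone, which lowers a ratio in most cases. The related receptor Msr1 had a ratio of 1.382 (1.221 to 1.56). In PARK7/DJ-1 KO cells Marco and Msr1 had 2 UMIs each.

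Lcn2 encodes lipocalin-2, which withholds iron from bacteria by binding their siderophores. It was 284.3, 442.8, 1003 and 1182 CPM over the 4 classes, a ratio of 4.158 (3.45 to 4.995), or 2.792 (2.239 to 3.459) without the 3 cells with most Lcn2. It was detected in 30.12% of the highest class and 8.963% of the class of 0. Cp, the copper-binding ferroxidase ceruloplasmin, was level at 170.4 and 170.1 CPM in the lower 2 classes and reached 398.3 and 940.2 CPM in the upper 2, a ratio of 5.516 (4.426 to 6.854). Fth1, the ferritin heavy chain that stores iron, was detected in nearly all cells of the highest class (96.39%) and had a ratio of 2.109 (1.978 to 2.246), which was 2.104 without its 3 highest cells. The products of Lcn2, Cp and Fth1 are all known to handle iron.

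Lyz2, the lysozyme of myeloid cells, had a ratio of 5.376 (4.641 to 6.22), and the chemokine Ccl5 one of 3.944 (3.292 to 4.711). Without the 3 cells with most UMIs of each gene these were 3.827 (3.222 to 4.529) and 2.567 (2.052 to 3.187), as 3 cells held 41.34% of the Ccl5 UMIs in the highest class. The transcript AW112010 had 2.408 (2.011 to 2.871). Ctsl (cathepsin L), Igsf6 and Srgn (serglycin) were detected in more than 40% of all cells and had lower ratios of 1.509, 1.28 and 1.163. The rank of Srgn did not hold, since its rho was -0.02 at 1000 UMIs. Of the 9 genes at 0.1 or more, 4 fell under it in some other setting of depth, drawing or seed: AW112010 (0.0830) and Ctsl (0.0536) at 1000 UMIs, Ccl5 (0.0741) with the other genes drawn from the UMIs that are not Saa3, and Igsf6 (0.0954) with another seed. Lyz2 fell under it as well (0.0802) among cells with an Xist UMI and no Y-linked UMI. All 10 genes were at least 2-fold lower in PARK7/DJ-1 KO than in wildtype cells, where 18.8% of the 1922 genes found in at least 5% of wildtype cells were. As they were picked by their values in wildtype cells, nothing is read from this count. Lcn2 and Ccl5 had 0 UMIs there, with exact upper limits of the ratio of KO to wildtype of 0.02179 and 0.0242. Against the floor of 3 UMIs in place of these limits, they were at least 56.55-fold and 50.93-fold lower.

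The lowest 10 values of rho belonged to Malat1 (-0.11), Skiv2l2 (-0.11), Specc1, Xrn2, Trim30a, Arhgef2, Herc2, Rsrc2, Kif1b and Kmt2a (-0.08). Malat1, a nuclear noncoding RNA found in every cell, went from 42600 CPM in the class of 0 to 31240 CPM in the class of at least 10, a ratio of 0.7334 (0.7113 to 0.7559). In free RNA Malat1 stood above cells, with a ratio of cells to free RNA of 0.5266 (0.5191 to 0.5341). These values were unsteady. When the other genes were drawn from the UMIs that are not Saa3, rho was -0.02 for Skiv2l2 and -0.0951 for Malat1, and at 1000 UMIs it was -0.0923 for Malat1 and turned to 0.0343 for Xrn2.

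**Figure D4:**
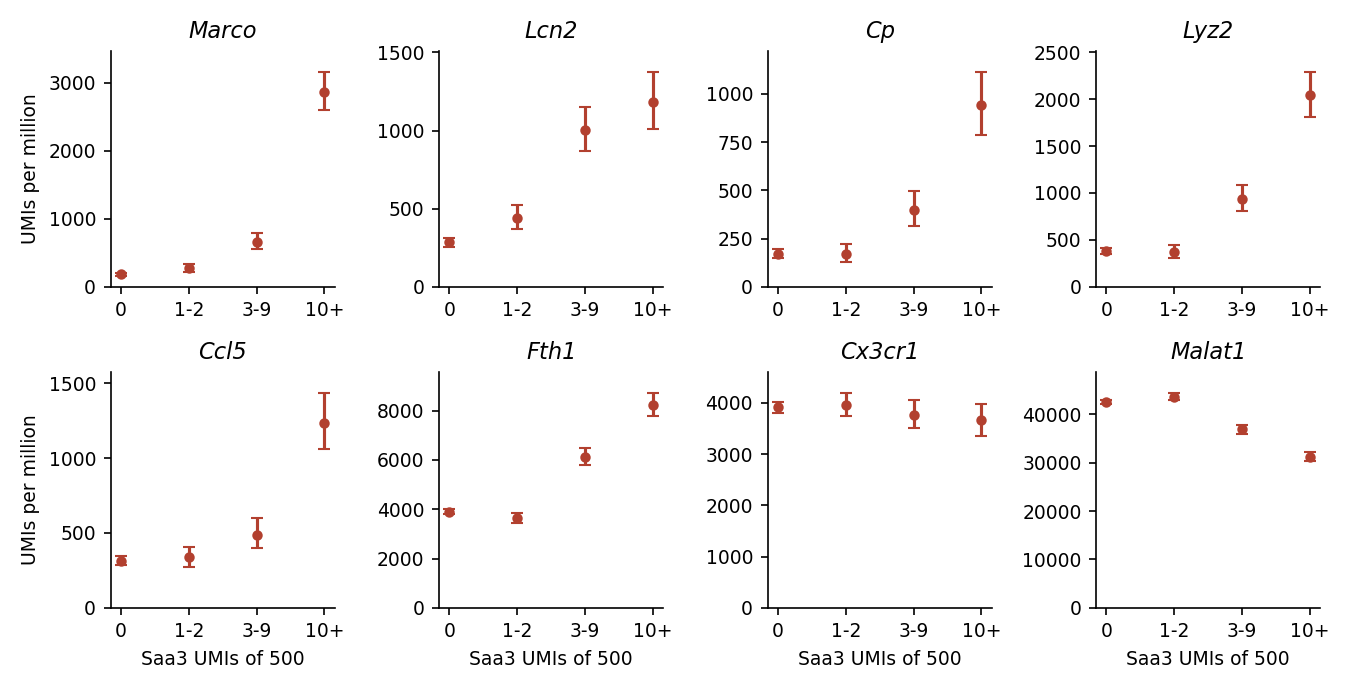
Level of 8 genes (UMIs per 1e6 UMIs other than Saa3, linear y axis from 0) in wildtype LPS cells by class of Saa3 UMIs of 500 (x axis, with 993, 229, 122 and 83 cells). Bars are exact Poisson 95% intervals. Marco, Lcn2, Cp, Lyz2, Ccl5 and Fth1 are highest in the class of at least 10, Cx3cr1 stays between 3657 and 3960 CPM, and Malat1 is lowest there.

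Other acute-phase genes were considered as a list of 26, of which 19 were in the matrix and 8 had a UMI in wildtype cells. Those at 0 in wildtype included the classical liver products Crp, Fga, Fgb, Orm1, Itih3 and Itih4. Summed, the list stood at 758.7 CPM in cells with 0 Saa3 UMIs and 2530 CPM in cells with at least 10, a ratio of 3.335 (2.951 to 3.763). Without Lcn2 and Cp the ratio was 1.342 (1.003 to 1.767), a choice made after the values were seen. Of 6 members with enough UMIs, 3 were at least 2-fold higher in the upper class (Lcn2, Cp and Hp, haptoglobin), where 3.76% of all genes were. Hp had 7 UMIs in that class and a ratio of 2.674 (0.9728 to 6.396), or 1.295 (0.2497 to 4.265) without its 3 highest cells. The metal-binding metallothioneins Mt1 and Mt2 had 1.059 (0.7104 to 1.53) and 1.864 (0.9122 to 3.506). All 6 were at least 2-fold lower in PARK7/DJ-1 KO cells, where 15.3% of all genes were. Their median log2 ratio of KO to wildtype was -3.71, where that of all genes was 0.03. The UMIs that took these 6 past the filter on low counts came mostly from wildtype cells. Without that filter, 7 of 11 members were at least 2-fold lower, where 1928 of 15845 genes were. Orm2, Hpx and Lbp, which the filter left out, had 1 UMI each in PARK7/DJ-1 KO cells and 0 in wildtype cells.

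The cytokines that switch Saa3 on were summed together with their receptors. The list of 15 stood at 1372 CPM in the class of 0 and 1127 CPM in the class of at least 10, a ratio of 0.8214 (0.6955 to 0.9647). The receptors Il6ra and Il1r2 gave 492 and 395 of its 1819 UMIs in the class of 0, so the sum says little about the cytokines. Il1b was lower in cells with most Saa3, at 48.39 CPM against 153.1 CPM, a ratio of 0.3161 (0.1255 to 0.6632) that rested on 7 UMIs, 6 of them in 3 cells. Among cells with an Xist UMI and no Y-linked UMI the ratio of Il1b was 0.8174 (0.2546 to 2.035). Tnf had 1.146 (0.622 to 1.967) and Il1a 1.073 (0.5178 to 2.008). Il1r2, the decoy receptor of interleukin-1, had 0.789 (0.5387 to 1.121), or 0.4893 (0.2956 to 0.7661) without the 3 cells with most Il1r2. Those cells were left out of the highest class alone, so no decrease of Il1r2 is read from the second value. Of the 9 members with enough UMIs, 0 were at least 2-fold higher in the upper class and 1 was at least 2-fold lower, where 3.76% and 6.83% of all genes were, so these counts say little about the list.

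Between the libraries, 3 of 11 of these cytokine and receptor genes were at least 2-fold lower in PARK7/DJ-1 KO (Il1b, Tnf and Il1r2) and 1 was higher (Il1rap, with a ratio of 1.987 from the UMIs and just above 2 with the prior count). Of all genes, 15.3% were lower and 13.5% higher by this rule. Il1b had 322 UMIs in wildtype cells and 1 in PARK7/DJ-1 KO cells, and Tnf had 183 and 5. Il6 itself had too few UMIs for these counts, with 9 in PARK7/DJ-1 KO and 8 in wildtype cells, a ratio of 5.868 (2.01 to 17.48). Il6ra and Il6st, the parts of the interleukin-6 receptor, stood higher in PARK7/DJ-1 KO, with ratios of 1.676 (1.444 to 1.94) and 1.577 (1.176 to 2.09).

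The transcription factors known to bind such promoters differed little in sum between the lowest and the highest Saa3 class. The list of 16, of which 15 were in the matrix, had a class ratio of 0.9967 (0.8969 to 1.105). Cebpb had 1.054 (0.8293 to 1.324), Stat3 had 0.7731 (0.4136 to 1.334), or 0.4504 (0.1783 to 0.9489) without its 3 highest cells, and Rela had 0.9649 (0.2502 to 2.68). The second Stat3 value leaves cells out of the highest class alone, and no decrease is read from it. Nfkbiz, which encodes the NF-κB cofactor IκBζ, had 1.73 (1.13 to 2.567). Of 14 with enough UMIs, 1 was at least 2-fold higher in the highest class (Nfkb2, 2.005, 0.747 to 4.625) and 0 were lower, where 3.76% and 6.83% of all genes were. Between libraries 4 of 15 were at least 2-fold lower in PARK7/DJ-1 KO and 1 was higher, where 15.3% and 13.5% of all genes were. Those lower were Cebpb with a ratio of KO to wildtype of 0.2639 (0.198 to 0.3452), Nfkbiz, Nfkb2 and Relb, and the one higher was Cebpa with 4.268 (3.01 to 6.033). Stat3 (1.118) and Rela (0.9781) had intervals that include 1.

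Receptors of LPS and of serum amyloid A, with the scavenger receptors, had a summed ratio of 2.411 (2.247 to 2.584), and of 1.524 (1.396 to 1.662) without Marco, again left out after its value was seen. Of 12 members with enough UMIs, 5 were at least 2-fold higher in cells with at least 10 Saa3 UMIs (Marco, Fpr1, Fpr2, Cd14 and, with the prior count, Ly96), where 3.76% of all genes were. Fpr1 and Fpr2, formyl peptide receptors, the second of which binds serum amyloid A, had ratios of 4.583 (2.717 to 7.55) and 2.661 (1.114 to 5.727). Fpr2 had 9 UMIs in the highest class and was detected in 1 of the 83 cells at 500 UMIs. Without the 3 cells that held 55.56% of those UMIs its ratio was 1.295 (0.3321 to 3.663), under 2-fold. Cd14, which hands LPS to Toll-like receptor 4, had 2.23 (1.866 to 2.651), or 1.979 without its 3 highest cells, and Ly96, the partner of that receptor, had 1.982 (0.7973 to 4.324). Tlr4 itself had 0.927 (0.4105 to 1.84), or 0.4424 (0.118 to 1.173) without its 3 highest cells, and Tlr2 had 1.008 (0.7147 to 1.388). Between libraries 7 of 12 were at least 2-fold lower in PARK7/DJ-1 KO, where 15.3% of all genes were. Tlr4 and Ly96 were not among them, with ratios of 1.124 (0.7188 to 1.7) and 1.739 (0.9768 to 2.967).

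Of 23 inflammatory genes with enough UMIs, 9 were at least 2-fold higher in the class of at least 10 Saa3 UMIs, where 3.76% of all genes were, and 3 were at least 2-fold lower, where 6.83% were. Ccl3 and Ccl4, which draw in monocytes and lymphocytes, had ratios of 9.167 (7.161 to 11.74) and 6.594 (4.903 to 8.835), but 3 cells held 73.13% and 74.39% of their UMIs in the highest class. Without those cells the ratios were 2.598 (1.746 to 3.778) and 1.782 (1.062 to 2.855). For Cxcl10 3 cells held 83.87%, and its ratio of 3.789 became 0.6456 (0.2037 to 1.575). Cybb, the catalytic subunit of the phagocyte NADPH oxidase, had 3.072 (2.484 to 3.778) and Sod2, the mitochondrial superoxide dismutase, 2.704 (2.013 to 3.588). These were spread over more cells, with ratios of 2.671 and 2.24 without the 3 highest.

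The 3 genes at least 2-fold lower in the class of at least 10 were Il1b, the chemokine Cxcl13 and the chemokine Ccl7. Cxcl13 had 1 UMI there and 88 in the class of 0, a ratio of 0.1042 (0.002608 to 0.5957). At 500 UMIs it was detected in 1 of 83 and 5 of 993 cells, and among cells with an Xist UMI and no Y-linked UMI the ratio was 1.042 (0.02349 to 7.773). Ccl7 had 0 UMIs there and 34 in the class of 0, a ratio with an upper limit of 1.051. Ccl12 (1.149), Nfkbia (1.088), Gpr84 (1.166) and Nlrp3 (0.9849) stood at nearly one level in both classes. Ccl2 had 1.058 (0.7755 to 1.416), but 3 cells held 43.14% of its UMIs in the highest class, and without them its ratio was 0.6597 (0.4367 to 0.961). Only that class lost cells, so no decrease of Ccl2 is read from the second value. All of these 5 were lower in PARK7/DJ-1 KO than in wildtype cells, with Ccl12 at 15.74 against 2098 CPM. Genes low in the PARK7/DJ-1 KO library thus included some that were higher in Saa3-rich wildtype cells and some at nearly one level there, while the lower values of Il1b, Cxcl13 and Ccl7 rested on 7, 1 and 0 UMIs in those cells. The interferon-induced list had 17 of 18 members at least 2-fold lower in PARK7/DJ-1 KO, where 15.3% of all genes were, and a class ratio of 1.157 (1.034 to 1.291).

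Cells with most Saa3 carried the transcripts of microglia. The 15 homeostatic genes summed to 17370 CPM in the class of 0 and 16270 CPM in the class of at least 10, a ratio of 0.9367 (0.8975 to 0.9774). Cx3cr1, the fractalkine receptor, had a ratio of 0.9347 (0.8531 to 1.022) and P2ry12 one of 0.97 (0.7306 to 1.267). Of 14 members with enough UMIs, 13 had a ratio below 1, with a median log2 ratio of -0.29, where that of all genes was 0.01. Those with intervals below 1 were Fcrls (0.7237, 0.5219 to 0.9812), Siglech (0.5826, 0.3887 to 0.843), Selplg (0.6663, 0.5063 to 0.8628) and Tgfbr1 (0.6775, 0.5171 to 0.8739).

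Markers of other myeloid cells, which a CD11b+CD45int gate could let through, and of cells without CD11b, which it would remove, had few UMIs in the Saa3-rich cells, and their ratios lay on either side of 1. The neutrophil list, of which 6 of 10 genes had a UMI in wildtype cells, had a ratio of 0.7323 (0.4835 to 1.07). Csf3r, which microglia also express, gave 19 of its 29 UMIs in the highest class, and without it, a choice made after the values were seen, the ratio was 1.03 (0.4775 to 1.984). S100a8, a calcium-binding protein abundant in neutrophils, had 8 UMIs in the 83 cells and 48 in the 993 cells, while Camp, Ltf and Ngp were at 0 in both. Of the monocyte list, Ly6c2 was at 0 and 2 UMIs of Ccr2 were found in the 83 cells. The border macrophage list had a ratio of 2.157 (1.047 to 4.101) on 12 UMIs, 7 from F13a1, 4 from Ms4a7 and 1 from Mrc1, while Cd163, Lyve1, Pf4 and Cbr2 were at 0 in these cells. Among cells that mostly lack CD11b, the lymphocyte list had a ratio of 3.056 (0.8688 to 8.844) on 5 UMIs, all from Cd79b, a part of the B cell receptor. The part of these markers in the Saa3 values was not tested. Fibroblast markers had no UMI in any wildtype cell, and choroid plexus markers had none in the 83 cells.

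**Figure D5:**
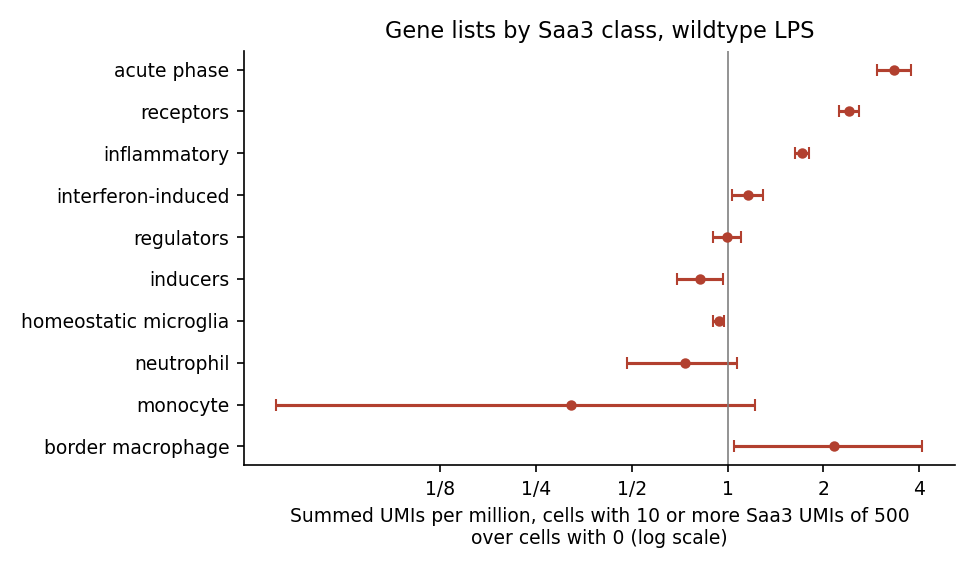
Ratio of the summed level of each gene list between wildtype LPS cells with at least 10 Saa3 UMIs of 500 (83 cells) and cells with 0 (993 cells), on a log axis, with exact 95% intervals for counting error. The acute-phase list (3.335) and the receptor list (2.411) lie to the right of 1, the homeostatic microglia, regulator and inducer lists lie close to 1 or just below it, and the monocyte and border macrophage lists have wide intervals.

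The 2 mice pooled in each library could be told apart in part by sex, since Xist is expressed from the inactive X of female cells. In the wildtype library 565 cells had an Xist UMI and no Y-linked UMI, and 195 had a Y-linked UMI and no Xist UMI. Another 80 cells had both and 587 had neither. Saa3 was 4745 CPM (4596 to 4897) in the first group and 3041 CPM (2849 to 3242) in the second, a ratio of 1.56 (1.452 to 1.678). At least 3 Saa3 UMIs of 500 were found in 17.56% (14.48 to 20.91) and 10.36% (6.378 to 15.4) of these cells, intervals that overlap. Cells with many Saa3 UMIs were found in both sets. Free RNA can add either marker to a cell, and sex cannot be told apart from the individual mouse. In the PARK7/DJ-1 KO library the corresponding numbers were 200 and 12 cells, all without Saa3, so few cells there could be assigned to the male.

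Marco, Lcn2 and Cp were named from all wildtype cells, which include both sets, so their values in each set are a description and no independent support. Between the ends of the Saa3 classes, Marco had a ratio of 21.49 (16.46 to 28.28) in cells with Xist alone and 37.6 (25.85 to 55.5) in cells with Y-linked UMIs alone, though the latter had only 8 cells in the highest class. Lcn2 had 4.24 (3.371 to 5.309) and 5.907 (2.284 to 13.68), and Cp had 5.732 (4.125 to 7.924) and 11.85 (7.176 to 19.33).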

How the data were processed

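Per the labels and the methods of the study, living CD11b+CD45int cells were sorted and encapsulated by Drop-seq. The authors deposited raw counts, UMIs per gene and barcode, in 1 matrix per library, without normalisation or filtering to cells. The submitters' processing notes name bcl2fastq 2.0, STAR and the builds mm9 and mm10, without saying which build served this series. Missing genes of a matrix were read as 0. Strand use in counting is not given in the sources used here.

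Saa3 and the gene lists were chosen with earlier results of these data known. The named genes were Saa3, its relatives, Park7, the 10 highest and 10 lowest rho, and members of the acute-phase, inducer, regulator and receptor lists with at least 20 UMIs in wildtype cells. Others named serve as examples of lists. Cells had at least 500 UMIs and 100 genes, and doublets were not removed. UMIs were summed over cells. Levels have exact Poisson, shares Clopper-Pearson and ratios exact conditional binomial intervals (95%). A fold against 0 used a floor of 3 counts in the library. Cells were thinned without replacement (seed 1). Calls of 2-fold used a prior count of 0.5. PCR copies are collapsed only as far as UMIs allow. Totals were 684738 and 3063795 UMIs per library, so that rare genes carry wider intervals in the PARK7/DJ-1 KO library than in the whole wildtype library. Python 3.11.15 with scipy 1.17.1, Biopython 1.88 and matplotlib 3.10.9 was used, with edgeR 4.0.16 and DESeq2 1.42.0 in R 4.3.3 for alternative scaling only. The thinning, the correlations and the log2 ratios between libraries were checked on simulated data, and the other calculations were not. Promoters are RefSeq, GRCm38.p6.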

Additional observations from a re-analysis of the deposited data

How the results depend on the processing

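No paired analysis was possible because each genotype had 1 library, and for the same reason no replicate could be left out. Of 69 alternative values for 17 results, 44 stayed within the interval of the reported value, or within 1.5 times a count. A change of direction was not scored for these results. The wildtype Saa3 level became 4473 CPM in cells of at least 1000 UMIs, 3969 CPM at 250 UMIs, 3968 CPM without the 1% of cells with most UMIs and 3751 CPM as a mean of single cells. The fold of wildtype over PARK7/DJ-1 KO against the floor of 3 UMIs became 380.2, 589.4 and 504.4 under the first 3 of these. After the data were seen, cells whose barcode holds an N or lies 1 letter from another were also left out (269 wildtype and 39 PARK7/DJ-1 KO cells), which gave 3649 CPM and 408.1-fold.

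The share of wildtype cells with Saa3 was 39.64% at 1000 UMIs, and 18.56% and 14.55% for at least 2 and 3 UMIs of 500. The ratio of cells to free RNA was 1.589 against barcodes of 1 to 50 UMIs and 2.769 against those of over 100 and under 500. The top 10% of cells held 78.58% of Saa3 UMIs among cells of at least 1000 UMIs. The number of genes with rho of at least 0.1 was 17 at 1000 UMIs, 17 by Pearson's r of log values, 37 in the 565 Xist-only cells and 160 in the 195 Y-only cells. With rho of at most -0.1 these were 11 at 1000 UMIs, 23 and 161 in the 2 sets of cells, and 1 each with the other genes drawn without Saa3 or with another seed. Single genes were scored for rho only where it was past 0.1 in either direction, and for the class ratios of the 10 genes with the highest rho. Of these, 54 of 76 alternative values stayed within that interval or, for rho, past 0.1, and 1 changed direction. Srgn and Xrn2 lay outside this count, and their rho changed sign at 1000 UMIs. The rho of Ctsl turned to -0.0078 in Y-only cells. Without a filter on low counts, 3889 of 15845 genes, in place of 1225 of 9084, were at least 2-fold higher in PARK7/DJ-1 KO. The cause was not tested. TMM and DESeq2 scaling moved none of the list counts past 1.5 times. In the PARK7/DJ-1 KO cells 0 UMIs allow up to 9.674 CPM, against 1.855 CPM in all wildtype cells.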

Other observations

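Clec4e, a receptor for mycobacterial glycolipid, had a class ratio of 24.45 with a lower limit of 5.867, but 3 cells held 87.5% of its UMIs in the highest Saa3 class and without them the ratio was 3.13 (0.0596 to 39). After the 5 genes named above, mt-Rnr1 (3.972), Cst3 (3.267), Apoe (3.054), Lyz2 (2.842) and Lcn2 (2.702) completed the 10 genes with the highest ratio of variance to mean over wildtype cells at 500 UMIs.

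Of the PARK7/DJ-1 KO library's 6 Saa3 UMIs, all lay in barcodes of 1 to 50 UMIs, at 37.58 CPM (13.79 to 81.8).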
